A study of Rattus norvegicus with 12 samples.

Results

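RNA pelleted through a sucrose cushion was compared with total cytosolic RNA of vehicle-treated rat neurons, using the 3 ribosome pellet libraries (numbered 2, 6 and 10 in their sample names) and the 3 total RNA libraries (numbered 4, 8 and 12) of the vehicle arm. These 6 were chosen by their labels out of 12 libraries, and the other 6 came from the same fractions of neurons given Aβ. The cells were primary cortical neurons prepared from late embryonic Sprague-Dawley rats and grown to maturity in culture. Vehicle was the HEPES buffer in which the Aβ peptide was delivered to the other arm. Cycloheximide, which halts elongating ribosomes on their mRNAs, was given to every culture shortly before lysis, so no group is free of it. Libraries were made from polyadenylated RNA, and 3 samples that the labels do not identify were captured on beads of higher efficiency. The study calls its samples biological replicates, but neither it nor the labels say which libraries came from separate cultures. It also calls the sequencing of the fractions paired without naming the pairs, so the fits here are unpaired.

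A messenger RNA is usually read by several ribosomes at once, and the loaded mRNA sediments through dense sucrose while free mRNA largely stays above it. Long coding sequences have room for more ribosomes than short ones. The cushion does not select by a ribosomal tag, so other fast-sedimenting RNA-protein particles can pellet as well. Transport granules with stalled ribosomes are a well-known example in neurons. The question put to these libraries is which transcripts made up a larger or a smaller part of the pellet than of the cytosol from which it was drawn.

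Between 14.1 M and 18.1 M mapped fragments stood behind each pellet library and between 16.3 M and 18.0 M behind each total library. Values are FPKM (the fragments of a gene divided by its transcript length in kilobases and by that library's mapped total in M) divided by a size factor for each library, and a difference is pellet minus total on the log2(scaled FPKM + 1) scale, which understates the change of weakly expressed genes. Of 25424 genes listed in full, limma was run on the 12152 whose FPKM averaged 1 or more in these 6 libraries, and a gene was called at a Benjamini-Hochberg adjusted p under 0.05. The table carries Ensembl identifiers (ENSRNOG) and non-Ensembl identifiers for further loci, all without symbols. Markers of neurons, glia or other cells were therefore not analysed here, and genes are described by transcript length, level and kind of identifier. Size factors made the median difference over all genes 0.00, so each value below is relative to the typical gene and not to the amount of RNA in a fraction.

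In the pellet 1900 genes were higher and 2017 were lower, 32.2% of those tested (15.6% higher and 16.6% lower). The near balance of both counts follows in large part from a scaling that sets the median difference to 0.00. The genes called higher had a median log2 difference of 0.81, and the genes called lower a median of -1.03. The middle 50% of all genes lay between -0.47 and 0.40, and the median standard error was 0.20. A difference of at least 2-fold upwards was seen in 583 genes, 550 of them called, and downwards in 1175 genes, 1056 of them called. At 4-fold the counts were 23 and 124, of which 19 and all 124 were called. The lower side therefore held more of the large differences. Without further scaling of the deposited FPKM the median of all genes moved to -0.30 and the split of calls to 914 higher against 3648 lower, and upper-quartile scaling gave 2447 higher against 1737 lower.

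The pellet libraries differed in the size of the departure from total RNA. Over all 12152 genes, 7931 (65.3%) had pellet libraries 2, 6 and 10 on 1 side of the total mean. All 3917 called genes did, which their choice from these libraries nearly fixes. The median difference for the genes called higher was 0.93 in library 2, 0.89 in library 6 and 0.65 in library 10. For the genes called lower it was -1.24, -1.07 and -0.77. By these medians library 2 stood farthest from total RNA and library 10 nearest to it. The pellet libraries were also more spread among themselves, with a median standard deviation per gene of 0.30 against 0.12 for the total libraries. No overlap between the 3 pellet and the 3 total values was found at 6292 genes, 51.8% of those tested, with 3104 higher in the pellet (25.5%) and 3188 lower (26.2%). The number of calls rested on single libraries. It was 4869 without pellet library 2, 2561 without pellet library 6 and 5246 without pellet library 10, and it fell to 1747, 1883 and 1870 without total library 4, 8 or 12. The same model on the 6 Aβ libraries, which share no sample with these, called 41.1% of the same genes, scaled over all 12 libraries. Of the 1900 genes higher in vehicle pellets 1896 were higher there too and 1637 were called, and of the 2017 lower genes 2013 were lower and 1803 were called. Whether the arms came from separate cultures is not given, so this agreement may not be between independent samples. The interaction of fraction and treatment was called at 0 of 12150 genes by limma (0%), where the median standard error was 0.26. An unadjusted p under 0.05 was found at 84 genes, far below the share of 0.05 that unchanged genes would give in a well-calibrated fit. Libraries of the Aβ and vehicle arms with neighbouring sample numbers deviated together within each fraction, and with these runs as a block in each fraction, added after seeing the data, 0 genes were called and 309 had an unadjusted p under 0.05. The count at an unadjusted p under 0.05 ran from 50 to 606 when 1 library was left out, so the 0 is not evidence that the fractions differed equally in both arms.

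**Figure D1:**
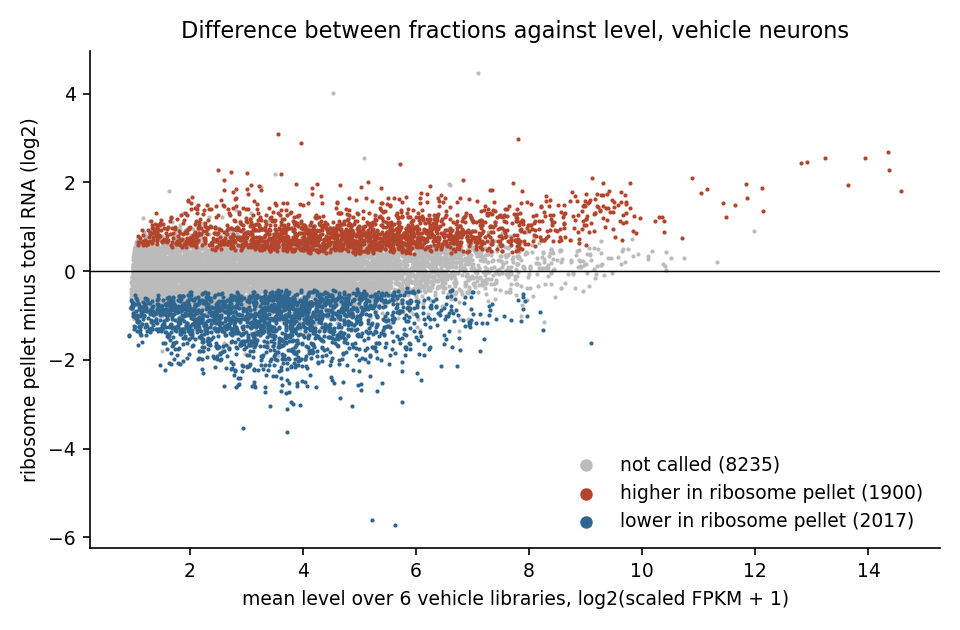
Difference between ribosome pellet and total RNA (log2, vertical axis) against the mean level over the 6 vehicle libraries (log2(scaled FPKM + 1), horizontal axis), with 1 point for each of 12152 genes. The 1900 genes called higher (red) reach farther to the right than the 2017 called lower (blue), and the 10 genes farthest to the right are all red.

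Genes called higher tended to have shorter transcripts than genes called lower, although the lengths of both sets overlapped. Lengths were those that the authors used for FPKM, recovered as whole numbers of bases from the steps in the values. Called-higher genes had a median length of 1242 bases (middle 50% 782 to 1836), called-lower genes 2524 bases (1488 to 4040) and all tested genes 1982 bases. Across 12151 genes, which are not independent replicates and share the same 6 libraries, Spearman's rho between length and the difference was -0.296. Taken alone, pellet libraries 2, 6 and 10 gave -0.305, -0.260 and -0.254 against the mean of the total libraries.

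The shortest transcripts went both ways. Of 635 genes under 500 bases, 191 were higher (30.1%, against 15.6% of all genes) and 89 were lower (14.0%, against 16.6%). Their median difference was 0.24, but the middle 50% ran from -0.62 to 0.98. A 2-fold or larger difference upwards was present in 24.7% of them and downwards in 15.7%. This class was also the least repeatable, with a median standard deviation per gene of 0.46 among pellet libraries and 0.24 among total libraries.

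More of the next class was called higher than lower. Of 1472 genes of 500 to 999 bases, 507 were higher (34.4%) and 195 lower (13.2%), and the class median was 0.36. It stood at 0.53 in pellet library 2, 0.34 in library 6 and 0.23 in library 10, while total libraries 4, 8 and 12 lay at -0.01, -0.03 and 0.04 around their own mean. The 3 pellet medians did not overlap the 3 total medians. Among 4050 genes of 1000 to 1999 bases, 809 were higher (20%) and 471 lower (11.6%), with a median of 0.15.

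From 2000 bases upwards the balance turned. Of 4374 genes of 2000 to 3999 bases, 354 were higher (8.09%) and 752 lower (17.2%), with a median of -0.08. Of 1458 genes of 4000 to 7999 bases, 36 were higher (2.47%) and 433 lower (29.7%), with a median of -0.31. Of 162 genes of 8000 bases and over, 3 were higher (1.85%) and 77 lower (47.5%), with a median of -0.60. In this longest class the median was -0.77 in pellet library 2, -0.55 in library 6 and -0.40 in library 10, against -0.04, 0.03 and 0.02 in total libraries 4, 8 and 12. Each pellet library was thus below every total library, and the 3 pellet libraries ranked as they did at 500 to 999 bases, with the median of library 2 the farthest from total RNA. Without pellet library 2 the longest class had a median of -0.44, with 76 genes lower and 7 higher, and the class of 500 to 999 bases one of 0.31. The medians of the short classes depended on scaling. As deposited, FPKM gave -0.03 under 500 bases, 0.08 at 500 to 999 bases and -0.85 at 8000 bases and over, so the order by length stayed while the point of balance moved.

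**Figure D2:**
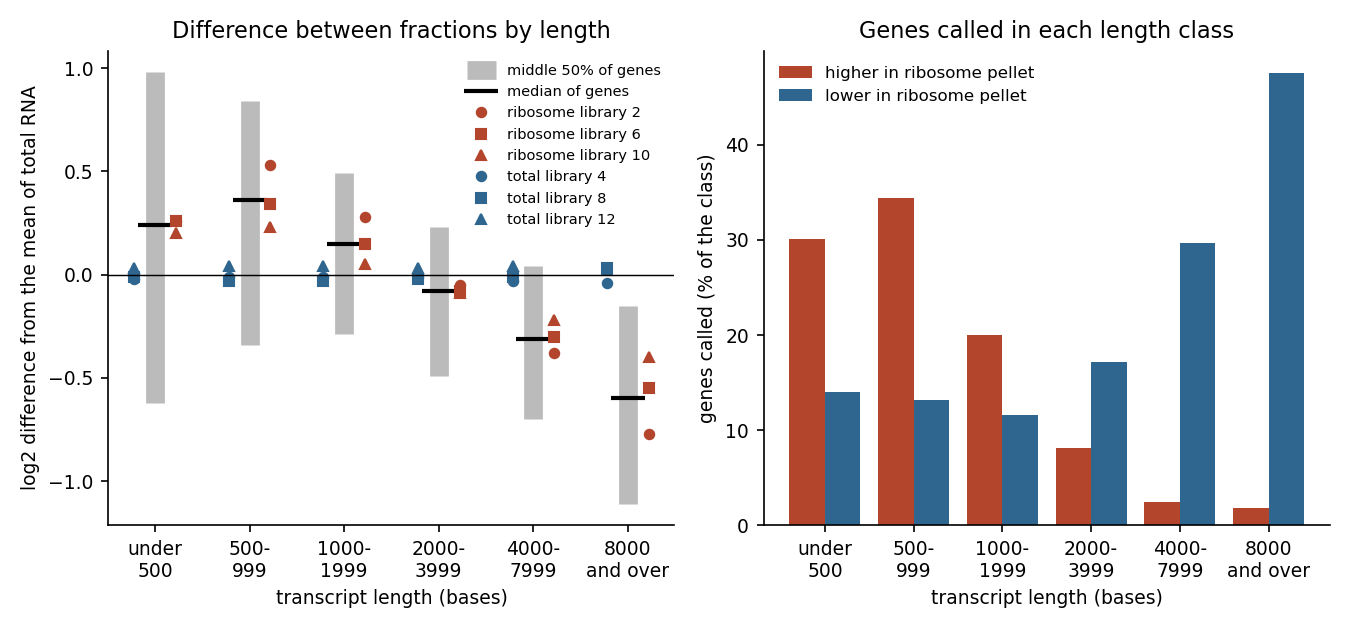
Left, log2 difference from the mean of total RNA by transcript length in bases: grey bars span the middle 50% of genes, black lines are medians of genes, red points are the class medians of the 3 pellet libraries and blue points those of the 3 total libraries. Right, genes called higher (red) and lower (blue) as a percentage of each class. Under 500 bases these were 30.1% and 14.0%. The higher share fell from 34.4% at 500 to 999 bases to 1.85% in the longest class. The lower share rose from 11.6% at 1000 to 1999 bases to 47.5%.

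The length difference was present in the fragments themselves, before any scaling between libraries. The mean transcript length behind a fragment was 2197, 2230 and 2342 bases in pellet libraries 2, 6 and 10, and 2916, 2957 and 2921 bases in total libraries 4, 8 and 12. The pellet mean was 2256 ± 76.0 bases (SD, n = 3) and the total mean 2931 ± 22.4 bases (SD, n = 3), with no overlap. An exact permutation test, two-sided, gave p = 0.1, the smallest that 3 against 3 allows. Without the 35 genes of highest level the pellet libraries stood at 2519, 2690 and 2778 bases and the total libraries at 3097, 3139 and 3112 bases.

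Fragments of transcripts of 500 to 999 bases made up 17.9% ± 0.80 (SD, n = 3) of the pellet libraries and 8.76% ± 0.179 (SD, n = 3) of the total libraries. Transcripts of 4000 to 7999 bases took 11% ± 1.11 of the pellet and 17.9% ± 0.289 of the total fragments. Transcripts of 8000 bases and over took 1.54% ± 0.256 and 3.28% ± 0.0902. In each of the 6 length classes the pellet and total libraries did not overlap, and each comparison gave the smallest exact permutation p of 0.1. Adjusted over the 16 library measures compared in this way it was also 0.1.

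**Figure D3:**
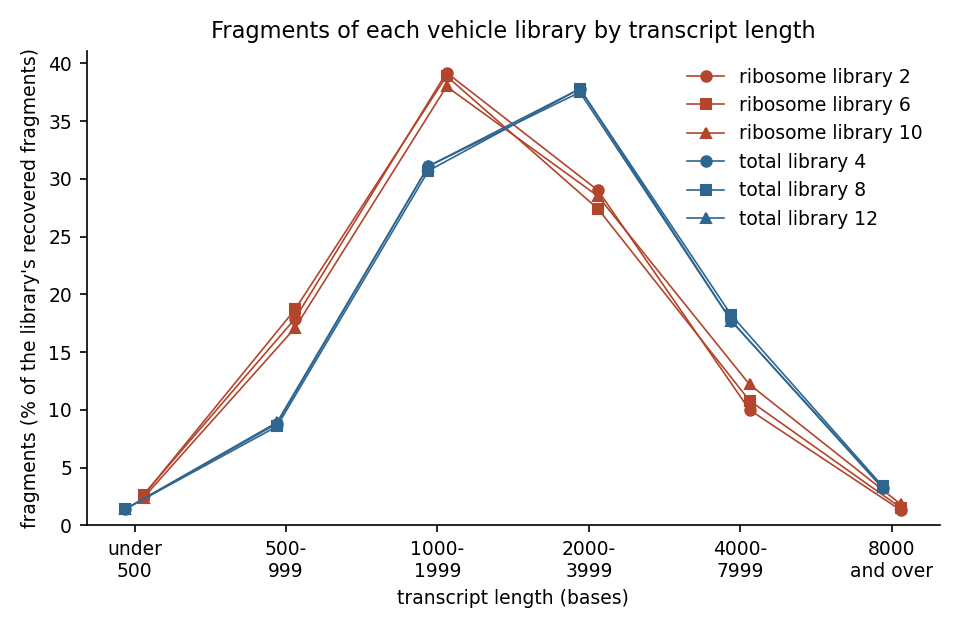
Share of each vehicle library's recovered fragments (percent, vertical axis) that fell on transcripts of each length class (bases, horizontal axis), with 1 line for each library. Pellet libraries (red) peak at 1000 to 1999 bases and total libraries (blue) at 2000 to 3999 bases.

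The difference also moved with level. Among 3492 genes with a mean scaled FPKM under 5, 215 were higher (6.16%) and 569 lower (16.3%). Of 3336 genes at 20 to 100, 751 were higher (22.5%) and 493 lower (14.8%). Of 802 genes at 100 to 1000, 361 were higher (45.0%) and 44 lower (5.49%), with a median difference of 0.50. Of 35 genes at 1000 and over, 24 were higher, 11 were not called and 0 were lower, with a median of 1.23. This grouping uses the pellet values too. Grouped by the total libraries alone, 341 of 3436 genes under 5 were higher and 392 lower, with a median of -0.01. At 5 to 20, 589 of 4528 genes were higher and 875 lower, with a median of -0.07. At 20 to 100, 691 of 3457 genes were higher and 670 lower, with a median of 0.03. The 707 genes at 100 to 1000 had a median of 0.33 and the 24 genes at 1000 and over one of 1.52. By total level the medians thus stood clearly above 0 only from 100 upwards. Spearman's rho between level and the difference over 12152 genes fell from 0.224 to 0.0522.

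Length and level combined. In the class of 100 to 1000 scaled FPKM, 90 genes under 500 bases had a median difference of 1.14, and 72 of them were higher (80.0%) against 4 lower. In the same level class 215 genes of 500 to 999 bases had a median of 0.95, with 158 higher (73.5%) and 8 lower. The 304 genes of 1000 to 1999 bases had a median of 0.42, the 164 of 2000 to 3999 bases 0.08 and the 28 of 4000 to 7999 bases -0.10. These level classes use the pellet values too. Grouped by total level, the medians from the shortest of these length classes upwards were 1.16, 0.93, 0.30, -0.05 and -0.33. At 4000 to 7999 bases the medians were -0.21, -0.33, -0.37 and -0.33 from the lowest total level upwards, without a rise. Short transcripts of low level did not share the high medians of short transcripts at 100 to 1000 scaled FPKM. Under a scaled FPKM of 5, 250 genes under 500 bases had a median of -0.15, with 26 higher and 40 lower. With a pseudocount of 0.1, which compresses low levels less, that median was -0.26, and grouped by total level it was 0.08 over 277 genes. Among the longest transcripts the medians were below 0 in the 3 level classes that held at least 20 genes. At 8000 bases and over, 58 genes under a scaled FPKM of 5 had a median of -0.41, 79 genes at 5 to 20 one of -0.66 and 24 genes at 20 to 100 one of -0.76. With a pseudocount of 0.1 these medians were close to each other, at -0.71, -0.75 and -0.77. Grouped by total level they were -0.37, -0.65 and -0.90.

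**Figure D4:**
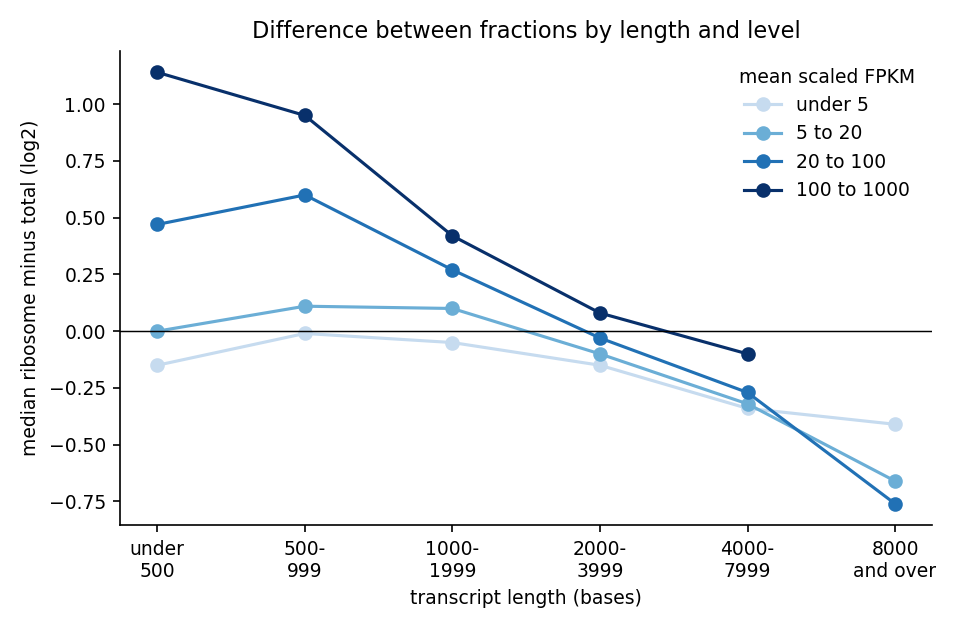
Median log2 difference between ribosome pellet and total RNA (vertical axis) by transcript length in bases (horizontal axis), with 1 line for each class of mean scaled FPKM and points only where a class holds at least 20 genes. The lines part at short lengths, from -0.15 to 1.14 under 500 bases, and draw together at 4000 to 7999 bases, from -0.34 to -0.10. The level classes drawn use the pellet values too. Grouped by total level, the medians ran from -0.19 to 1.16 under 500 bases and from -0.37 to -0.21 at 4000 to 7999 bases.

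A few very abundant genes took much of the pellet. The 10 genes of highest mean level over the 6 libraries, a choice that uses the pellet values, were 348 to 1545 bases long and all were called higher, with differences of 1.36 to 2.69 and adjusted p of at most 0.00723 by limma. They held 16.4%, 23.4% and 21.0% of the fragments of pellet libraries 2, 6 and 10, and 5.73%, 5.43% and 6.22% of total libraries 4, 8 and 12. The groups did not overlap, and library 2 was the lowest of the pellet libraries. Of the 10 genes of highest level in total RNA alone, 8 were higher, 2 were not called and 0 were lower, with a median of 2.12. In the Aβ libraries the first 10 genes were higher too, by 1.45 to 2.41. Altogether 346 to 455 genes sufficed for 50% of a pellet library against 881 to 953 genes for a total library. The genes with the most fragments were largely the same in both fractions, since 17 of the 20 leading genes of the pellet were among the 20 leading genes of total RNA (85.0% of each list). Of the 20 that led the pellet, again a choice that uses the pellet values, 16 were higher and 0 lower. Of the 20 that led total RNA 13 were higher and 2 lower. Over all genes tested, 15.6% were higher and 16.6% lower.

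Loci without an Ensembl identifier departed from the length pattern. Of 905 non-Ensembl loci, 175 were higher (19.3%) and 126 lower (13.9%), with a median of 0.20, against 1725 (15.3%), 1891 (16.8%) and a median of -0.02 for 11247 Ensembl genes. At 4000 to 7999 bases the median of 126 non-Ensembl loci was 0.16 and that of 1332 Ensembl genes -0.35. At 2000 to 3999 bases it was 0.23 over 236 non-Ensembl loci and -0.10 over 4138 Ensembl genes. At 500 to 999 bases the order of the medians was the other way, with 0.09 for 223 non-Ensembl loci and 0.41 for 1249 Ensembl genes. The non-Ensembl loci were weakly expressed, with a median scaled FPKM of 2.68 against 12.7, and the part of that gap in these values was not tested. How the non-Ensembl loci were defined is not given in the sources used here.

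The genes of smallest p in each direction show the differences by library. ENSRNOG00000033299 (204 bases) was higher, with a scaled FPKM of 432, 401 and 350 in pellet libraries 2, 6 and 10 and of 56.4, 43.4 and 48.7 in total libraries 4, 8 and 12. The log2 difference was 2.97 (SE 0.16, limma adjusted p = 0.000675). Its pellet and total values did not overlap, as at 51.8% of all genes tested. ENSRNOG00000038678 (348 bases) had a scaled FPKM of 207, 187 and 151 in the pellet and of 39.3, 45.8 and 42.7 in total RNA. Its difference was 2.06 (SE 0.16, limma adjusted p = 0.00231). Both belong to the shortest class, where they ranked 2 and 7 of 635 from the top. In the Aβ libraries they were higher as well, by 2.70 (SE 0.18) and 1.49 (SE 0.14).

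On the lower side, ENSRNOG00000008766 (5259 bases) had a scaled FPKM of 2.89, 2.89 and 3.33 in pellet libraries 2, 6 and 10 and of 18.6, 20.7 and 24.5 in total libraries 4, 8 and 12. The difference was -2.46 (SE 0.16, limma adjusted p = 0.00175) against a median of -0.31 for its length class. The Aβ libraries gave -2.63 (SE 0.14).

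ENSRNOG00000049813 (655 bases) was close to absent from the pellet, with 4, 0 and 2 fragments in libraries 2, 6 and 10 against 180, 179 and 147 fragments in total libraries 4, 8 and 12. Its scaled FPKM was 0.227 ± 0.243 (SD, n = 3) in the pellet and 13.1 ± 0.460 (SD, n = 3) in total RNA, a difference of -3.54 (SE 0.19, limma adjusted p = 0.000675). Per mapped fragment, total RNA held 78.6 times as much (exact 95% interval 35.9 to 215, counting error only). This gene did not keep its pattern in the Aβ arm. There it had 224, 1 and 4 fragments in pellet libraries 1, 5 and 9 and 232, 21 and 2 fragments in total libraries 3, 7 and 11. High and low libraries were found in both fractions, and the difference was -0.16 (SE 1.35, limma adjusted p = 0.936). The interaction did not pass, with a log2 value of 3.40 and a limma adjusted p of 1.0. On a scale common to all 12 libraries its scaled FPKM ran from 0.0850 to 24.3 among the Aβ pellet libraries and from 0.15 to 16.7 among the Aβ total libraries. A spread of more than 2 log2 units among the Aβ total libraries was seen at 4 of the 2017 called-lower genes and 2 of the 1900 called-higher genes. Among the Aβ pellet libraries it was seen at 11 called-lower and 14 called-higher genes.

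**Figure D5:**
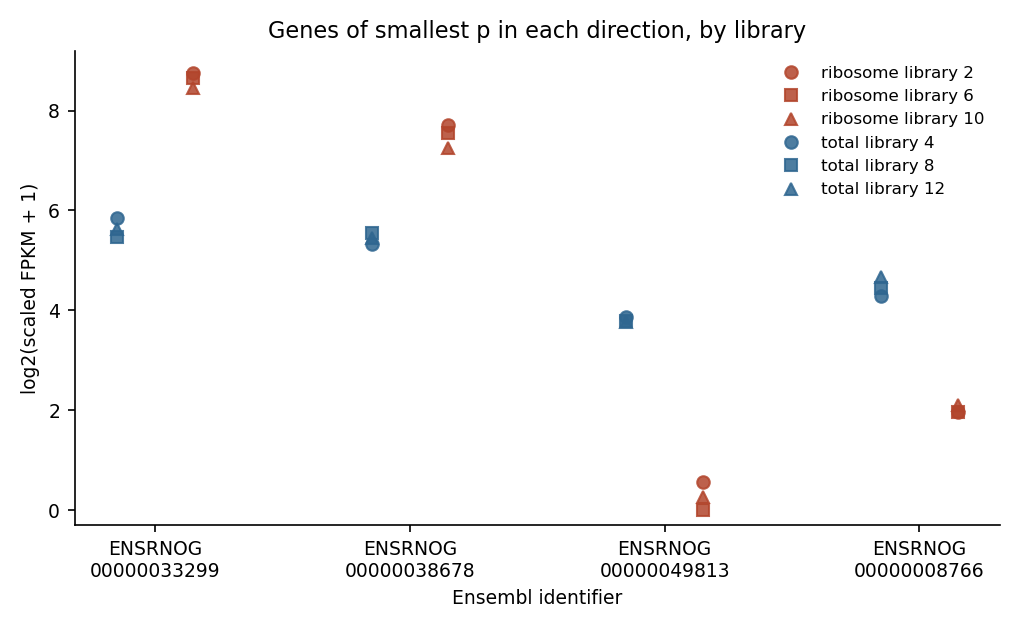
Level of the 4 genes of smallest p, 2 in each direction, as log2(scaled FPKM + 1) in each vehicle library (red pellet, blue total). In all 4 genes the 3 pellet libraries lie apart from the 3 total libraries, which their choice by p from these libraries nearly fixes. The same holds for 51.8% of all genes tested.

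The largest differences of all were found at a pair of called-lower genes of 612 and 758 bases, with log2 differences of -5.61 and -5.73 and limma adjusted p of 0.00231 each. The longer of them had 0, 12 and 6 fragments in pellet libraries 2, 6 and 10 and 2578, 463 and 1215 fragments in total libraries 4, 8 and 12. The shorter had 0, 6 and 0 fragments in the pellet and 1681, 296 and 620 fragments in total RNA. Both were nearly missing from every pellet library, and both had most fragments in total library 4 and fewest in total library 8. The Aβ total libraries showed the same order, with 2769, 405 and 1282 fragments of the longer gene in libraries 3, 7 and 11. The largest upward difference, 4.46 at a gene of 701 bases, was not called (SE 2.01, limma adjusted p = 0.124). It came from pellet library 10, with 8654 fragments against 183 in library 6 and 0 in library 2, and the total libraries had 2, 3 and 0. The Aβ arm showed a like order, with 2, 321 and 8021 fragments in pellet libraries 1, 5 and 9. Its total libraries 3, 7 and 11 had 1, 3 and 4. The cause of this order was not tested.

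Few genes were found in 1 fraction alone. Over the whole table, 166 genes had no fragment in any pellet library and at least 1 in each total library, and 7 genes showed the reverse. Only 6 of the 166 and 0 of the 7 reached the level needed for testing. For 164 of the 166 the whole fragments were recovered, with a median of 6.0 over the 3 total libraries and at most 50. A count of 0 over the 3 pellet libraries allows up to 3 fragments. With the total counts taken as exact, that limit put 76 of the 164 at least 2-fold and 1 at least 10-fold lower in the pellet. The other 88 were too weak for a 2-fold difference to be detectable at this depth. The genes were picked for their 0 counts, and the counting error of their few total fragments was left out. The 76 is therefore not a count of genes shown to differ.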

How the data were processed

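Per the labels and the study's methods, the authors sequenced paired-end libraries of polyadenylated RNA, aligned reads with TopHat 2.0.12 on a Bowtie 2.2.3 index and counted fragments per gene with HTSeq 0.6.1 in union mode. They deposited FPKM, and replicates were not pooled. The genome build, annotation and strand setting are not given in the sources used here. Copies of a gene and overlapping genes may share or lose fragments under such counting.

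Libraries were grouped by their titles. The last row of the table broke off and was left out. Each FPKM column was divided by a median-of-ratios size factor over the 6 vehicle libraries, and genes averaging 1 FPKM or more were kept. Their log2(scaled FPKM + 1) entered limma 3.58.1 (R 4.3.3). Variances were moderated by eBayes with a trend, and p-values were adjusted over all 12152 genes by the Benjamini-Hochberg method, with a threshold of 0.05. The Aβ libraries were fitted with the same model on these 12152 genes, but with size factors over all 12 libraries. The interaction came from 1 fit of 12 libraries. Whole fragments, transcript lengths and depths were recovered from the steps in the FPKM values, for 12151 of the 12152 tested genes, with lengths within 0.1 base of a whole number. A gene above 0 in few libraries can have a multiple of the fragments given. The recovery of fragments and the limma fit were also run on simulated data, with outcomes that are not reported here. At 3 fragments, the lowest detectable FPKM of a 2000-base transcript was 0.0828 to 0.106 in the vehicle libraries, from counting error only.

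The comparison, the length and level classes and the alternatives were chosen with earlier results of these data known. Identifiers were to be named by smallest adjusted p, 2 in each direction. Other genes were described by length or rank after their values were seen. Of 25424 identifiers 0 matched the RefSeq gene table (GRCr8), so planned gene lists, cell type markers, names, promoters and other sequences were not analysed here. Alternatives were other scalings, a pseudocount of 0.1, no filter or a filter at 5 FPKM, omission of each library in turn, a block for runs of 4 sample numbers, eBayes without trend, array weights, 1 fit of 12 libraries, a minimum fold, voom weights on recovered fragments and removal of each library's length trend. One weight for each fraction, a block by run and fraction (for the interaction) and a ranking by total RNA alone were added after seeing the data. Other computations used Python 3.11.15, numpy 2.4.6, pandas 2.3.3 and scipy 1.17.1, with figures from matplotlib 3.10.9.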

Additional observations from a re-analysis of the deposited data

How the results depend on the processing

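The number of called genes, 3917, stayed within 1.5 times under the scalings, pseudocounts, filters, eBayes without trend, 1 fit of 12 libraries, voom weights, removal of the length trend and 1 weight for each fraction. Array weights gave 8549 calls (4370 higher, 4179 lower). A minimum log2 difference of 1 left 1606 (550 higher, 1056 lower), by its construction. FPKM as deposited gave 914 higher and 3648 lower, since the median of all genes moved to -0.30. Leaving out 1 library gave 1747 to 5246 calls, 787 to 2541 of them higher and 960 to 2705 lower, lowest without total library 4 and highest without pellet library 10; the cause was not tested. None of the calls shared with any alternative changed sign. The 4 named genes kept their direction and call in all 19 alternatives. The interaction stayed at 0 genes except for 1 gene without vehicle total library 8, a range of 0 to 1 over libraries left out. Its count at an unadjusted p under 0.05, 84 in the reported fit, was 606 without vehicle pellet library 10, 201 without vehicle pellet library 6, 206 and 189 without Aβ pellet libraries 9 and 5, 50 and 55 without vehicle total libraries 4 and 8, and 883 with array weights.

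The median of the class under 500 bases turned from 0.24 to -0.03 with FPKM as deposited, to -0.05 with no filter and to -0.03 with each library's length trend removed. The class of 1000 to 1999 bases turned to -0.15 with FPKM as deposited, and the class of 2000 to 3999 bases to 0.00 with upper-quartile scaling. Removing the length trend, which by construction takes the length difference out, brought the classes of 2000 to 3999 and 4000 to 7999 bases to 0.03 and 0.04, while 3672 genes were still called, 3031 of them shared with the 3917.

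The study calls the fractions paired, but no source used here names the pairs. Taking runs of 4 sample numbers as pairs is an assumption: deviations of pellet and total libraries of a run correlated at 0.0725, -0.157 and -0.195, and not every library correlated best with its own run. With this replicate block 3467 genes were called, 1514 higher and 1953 lower, and the interaction stayed at 0. Between treatments within a fraction, libraries of a run did deviate together (0.409 to 0.711 in the pellet, 0.439 to 0.563 in total RNA), and a replicate block for each run within each fraction left the interaction at 0 genes, with 309 at an unadjusted p under 0.05. Depth limits what is said of genes at a few fragments.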

Other observations

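The pellet libraries departed from each other at more genes than the total libraries did. A difference of more than 1 log2 unit from the mean of the other pellet libraries was seen at 1184 genes in library 2, 289 in library 6 and 739 in library 10, against 45, 53 and 78 genes in total libraries 4, 8 and 12. Library 2 was the shallowest, with 14.1 M mapped fragments, and listed 15079 genes above 0 against 16170 and 16504 in the other pellet libraries. At 26 genes library 2 lay more than 2 log2 units below both other pellet libraries and at 11 genes above both. Library 10 lay above both others at 21 genes and below both at 0. The total libraries held 0 to 2 such genes in each direction.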
